A study of Mus musculus with 12 samples.

Results

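The 43 genes described here drive or mark the cell division cycle, and were taken as a fixed list: 16 genes of G1 and S phase, 20 genes of G2 and M phase, 3 D cyclins with their partner kinase Cdk6, and the 3 Cdkn1 inhibitors. Their probe sets are those for which the platform annotation names exactly 1 gene. In all, 96 of 45101 probe sets met that rule, for 42 of the 43 genes; no probe set naming Ccnb1 alone was found, so that gene was not analysed here. All 42 genes passed the filter on low signal, through 90 of the 96 probe sets, and each was represented by its probe set with the highest mean among 12089 genes tested.

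The samples are pieces of the posterior neural tube, the part of the embryonic tube that becomes spinal cord, of CD1 mouse embryos (an outbred stock) at embryonic day 9.5. The tube was loosened with pancreatin, a digestive enzyme mixture, freed with needles and cut into 6 parts, and each part has 2 biological replicates, so 12 Affymetrix arrays were made from 2 embryos. No embryo carried a mutation or received a treatment that the labels name, and the labels do not say which part number is the caudal end. A part is a tissue block, so fewer cells of a type and less RNA per cell cannot be told apart, and p-values rest on the spread between pieces of 2 embryos. Signals are linear MAS5 array intensities, scaled to the same trimmed mean of 100 on every array, and array medians were 16.7 to 19.1. The number of arrays limits the precision. A level of 1 probe set cannot be set against that of another.

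A cell in G1 passes into S phase when D cyclins with Cdk4 or Cdk6, and then cyclin E with Cdk2, phosphorylate the Rb protein and free E2F factors, which switch on the genes of DNA replication. Later, the DREAM and MuvB complexes, bound at a promoter element called CHR, release the genes of G2 and mitosis. The Cdkn1 proteins p21, p27 and p57 bind and inhibit cyclin-dependent kinases. In the early neural tube most cells are cycling progenitors, and withdrawal from the cycle accompanies the birth of neurons.

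The tissue label was checked against marker genes. Of 10 neural tube markers, Pax6, Msi1, Sox1, Sox2, Hes5 and Sox3 rose with part number, Vim fell, and Nes, Cdh2 and Fabp7 did not pass. The summed signal of the 10 was 6215 to 6607 in part 6, against 3516 to 3729 in part 1. Within that sum Hes5 averaged 119 in part 1 and 1517 in part 6, and Sox2 242.5 and 1518. Fabp7 averaged 518 in part 1 and 51.5 in part 6, and Vim 1897 and 907. Markers of presomitic mesoderm, the tissue beside the tube, summed to 4244 to 6015 in part 1, 2242 to 4168 in part 2, 695 to 703 in part 3 and 426 to 451 in part 6, and 4 of 8 fell. Surface ectoderm markers summed to 138 to 154 in part 6, against 456 to 1182 in part 1, and 7 of 8 fell. Of 6 somite markers Pax1, Uncx and Myf5 lay under the median signal on every array, Tcf15 fell (-0.28 ± 0.049 log2 units per part, adjusted p = 0.00208), and the list summed to 106 to 159 in part 1, 109.9 to 473 in part 2 and 46.0 to 65.6 in part 6. Of 8 neuron markers Dcx, Isl1 and Nefm lay under the median on every array, Elavl4 rose (0.26 ± 0.073, adjusted p = 0.0320), Stmn2 fell (-0.26 ± 0.037, adjusted p = 0.000472) and the list summed to 231 to 271 in part 6, against 163 to 199 in part 1. Blood markers summed to 35.2 in replicate 1 and 9905 in replicate 2 of part 1, the lowest and the highest of all arrays, and none of 4 tested passed. The 2 arrays of part 1 thus differed widely in blood signal, as did those of part 6 (75.8 in replicate 1 and 6280 in replicate 2). Replicate 2 was also the higher in part 3 (1289 and 5535), part 4 (2687 and 4075) and part 5 (1482 and 6846). In part 2 replicate 1 was the higher (6127 and 2818). Pecam1, Cdh5, Tek and Flt1 of endothelium lay under the median on every array. Parts 1 and 2 therefore held markers of mesoderm and ectoderm at higher signal than parts 3 to 6; what that contributed to the values below was not tested.

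A straight line fitted to log2 signal against part number asks whether a gene climbs or declines along the tube. By this test 7 of the 42 genes passed an adjusted p of 0.05 (16.7%), against 12.7 percent of all genes tested. The cyclin Ccnd2, the phosphatase Cdc25b, the inhibitor Cdkn1c and the replication genes Cdt1 and Mcm4 rose, and the inhibitor Cdkn1a and the kinase Cdk1 fell. The share rising was 5 of 42, against 5.66 percent of all genes, and the share falling 2 of 42, against 7.08 percent. The median slope of the 42 genes was 0.0095 log2 units per part, against -0.0073 over all genes, and the median absolute slope was 0.0378, against 0.0501. Most of the cell cycle genes thus had slopes no steeper than those of a typical gene on the array, and the 4 with the steepest slopes, Cdkn1a, Cdc25b, Ccnd2 and Cdkn1c, encode regulators of cyclin-dependent kinases. The comparison with all genes was not matched for signal level.

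**Figure D1:**
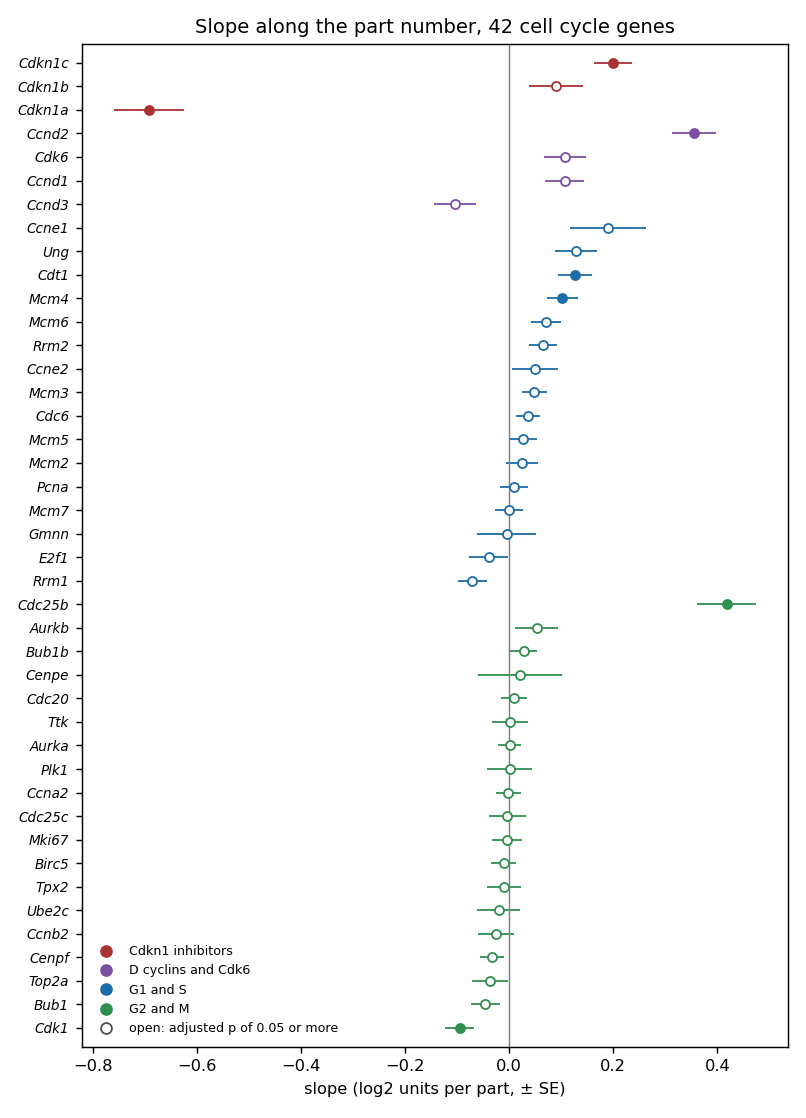
Slope along the part number (horizontal axis, log2 units per part, bars are SE over 12 arrays) for the 42 genes, coloured by class; filled points passed an adjusted p of 0.05. Cdkn1a at -0.69 stands alone on the left, Cdc25b at 0.42 and Ccnd2 at 0.35 lie farthest right, and the genes of G2 and M other than Cdc25b crowd around 0.

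Cdkn1a, which encodes p21, an inhibitor of Cdk2 complexes and a known target of p53, had the steepest slope of the 42 genes. Its signal (probe set 1424638_at, replicate 1 and then replicate 2 in each part) was 132 and 115 in part 1, 136 and 155 in part 2, 55.3 and 49.4 in part 3, 34.0 and 53.2 in part 4, 10.4 and 15.9 in part 5, and 14.1 and 10.8 in part 6. Both arrays of each of parts 1 and 2 lay above all others, and parts 5 and 6 fell under the median signal of their arrays. Detection calls were not used, so whether those dim signals exceeded background was not tested. The slope was -0.69 ± 0.067 log2 units per part (SE, adjusted p = 2.2e-05), and it was -0.68 in replicate 2 and -0.71 in replicate 1. Part 6 averaged 12.4 ± 2.37 against 123 ± 11.8 in part 1 (SD, n = 2 each), and the contrast passed (adjusted p = 8.9e-05). With each array of part 6 taken at its median signal, of 17.3 on average, the signal was at least 7.11-fold lower in part 6 than in part 1; slopes use the signals as deposited. A second, dim probe set of Cdkn1a had a slope of -0.36 that did not pass (adjusted p = 0.0581 over all kept probe sets). From part 2 to part 3 Cdkn1a fell together with the summed mesoderm and ectoderm markers. From part 1 to part 2 Cdkn1a did not fall, and the mesoderm sum did (2242 to 4168 in part 2). The ectoderm sum was 600 to 756 in part 2, within its range in part 1, and 265 to 348 in part 3. From part 4 to part 5 Cdkn1a fell again, while the mesoderm markers summed to 416 to 527 and then 365 to 486. The ectoderm markers summed to 242 to 332 in part 4 and 139 to 196 in part 5. On the arrays of part 1, replicate 2 and replicate 1 in turn, the mesoderm markers summed to 4244 and 6015, the ectoderm markers to 456 and 1182, and Cdkn1a was at 115 and 132; the part of either tissue in the decline was not tested.

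RefSeq gives 2 promoter windows for Cdkn1a, each from 250 bases before to 50 bases after a transcription start on GRCm38.p6, and the 150 bases before each start are printed 5′ to 3′ because this gene declined most.
Cdkn1a, chr17:29090829-29090978, plus strand: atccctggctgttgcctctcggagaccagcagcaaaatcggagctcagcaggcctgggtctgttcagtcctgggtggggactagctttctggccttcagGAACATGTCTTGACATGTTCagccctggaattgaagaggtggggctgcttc
Cdkn1a, chr17:29093619-29093768, plus strand: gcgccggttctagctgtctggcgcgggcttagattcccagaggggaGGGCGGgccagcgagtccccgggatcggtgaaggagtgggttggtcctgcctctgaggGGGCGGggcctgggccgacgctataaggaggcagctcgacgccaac
Capitals in the first mark a 20-letter match to the p53 response element that differs from its consensus by at most 1 letter, a motif searched only after these letters had been seen. The same search matched 29 of 32851 windows in the RefSeq table (0.0883%) and 1 of the 35 windows of the cell cycle genes. Capitals in the second mark 2 GC boxes (GGGCGG), the element bound by Sp factors, which 35.7% of all windows hold on either strand. Neither match was measured as bound here.

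Of the other inhibitors, Cdkn1c rose and Cdkn1b did not pass. Cdkn1c, which encodes the imprinted inhibitor p57 (1417649_at), had signals of 498 and 374 in part 1, 489 and 379 in part 2, 602 and 536 in part 3, 698 and 741 in part 4, 852 and 613 in part 5, and 857 and 746 in part 6. All 8 arrays of parts 3 to 6 lay above the 4 arrays of parts 1 and 2. Its slope was 0.20 ± 0.036 (adjusted p = 0.00232), and part 6 was 1.84-fold higher than part 1, at 0.88 ± 0.23 on the log2 scale (adjusted p = 0.0406). Cdkn1b, which encodes p27 (1434045_at), was dim, with 24.2 and 34.5 in part 1, 54.0 and 43.1 in part 2, 52.9 and 42.7 in part 3, 42.4 and 64.9 in part 4, 35.3 and 60.7 in part 5, and 43.5 and 51.8 in part 6. Its lowest arrays were those of part 1, and its slope of 0.09 ± 0.052 did not pass (adjusted p = 0.303). The end difference of Cdkn1c no longer passed when any 1 of 7 arrays was left out (part 1 replicate 2, or either array of parts 3, 4 or 6; adjusted p up to 0.187), while its slope passed in every such fit.

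Among the D cyclins, which carry growth signals into the cycle, Ccnd2 rose while Ccnd1, Ccnd3 and Cdk6 did not pass. Ccnd2 (1434745_at) had signals of 1325 and 1116 in part 1, 1150 and 1513 in part 2, 1462 and 1304 in part 3, 1727 and 1885 in part 4, 2749 and 3212 in part 5, and 3844 and 4103 in part 6. Parts 1 to 3 overlapped, and from part 4 on both arrays of each part exceeded both arrays of the part before. The slope was 0.35 ± 0.042 (adjusted p = 9.6e-05), and part 6 averaged 3973 ± 183 against 1220 ± 148 in part 1 (SD, n = 2 each), a 3.26-fold ratio (log2 difference 1.70 ± 0.19, adjusted p = 0.000565). In a fit over every kept probe set, 15 of the 90 of the cell cycle genes passed, against 8.93 percent of all, and among them were all 7 probe sets of Ccnd2, with slopes of 0.35 to 0.55 and adjusted p between 0.0001042 and 0.01555.

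**Figure D2:**
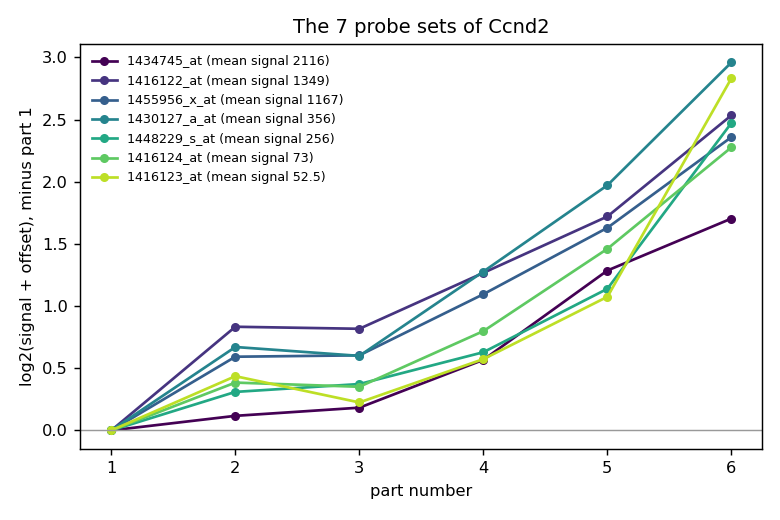
Mean log2(signal + offset) of the 7 Ccnd2 probe sets in parts 1 to 6, each shown as the difference from its own part 1 (vertical axis, log2 units; points are means of 2 arrays). All 7 lines end above 0 in part 6, with slopes of 0.35 to 0.55 log2 units per part.

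Ccnd1, the cyclin D1 gene (1448698_at), had 937 and 759.6 in part 1, 1081 and 1001 in part 2, 1360 and 1111 in part 3, 1411 and 1486 in part 4, 1360 and 1318 in part 5, and 1255 and 1113 in part 6. Both arrays of part 1 were its lowest and both of part 4 its highest, yet neither the slope (0.11 ± 0.037, adjusted p = 0.0810) nor the end difference (0.48 ± 0.18, adjusted p = 0.132) passed. Ccnd3 (1415907_at) had 292 and 304 in part 1, 250.3 and 349.7 in part 2, 231 and 331 in part 3, 240.3 and 329 in part 4, 205 and 286 in part 5, and 181 and 221 in part 6. Its replicate 2 was above replicate 1 in all 6 parts, both arrays of part 6 lay below those of parts 1 to 4, and the slope was -0.10 ± 0.040 (adjusted p = 0.115). Cdk6 (1455287_at) had 457 and 425 in part 1, 507 and 618.5 in part 2, 558 and 653 in part 3, 489 and 708 in part 4, 554 and 881 in part 5, and 614 and 699 in part 6, with a slope of 0.11 ± 0.040 (adjusted p = 0.101). Part 1 held its 2 lowest arrays. With the replicate number as a block, both slopes passed, at adjusted p = 0.0217 for Ccnd3, which then fell, and 0.0428 for Cdk6, which rose.

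**Figure D3:**
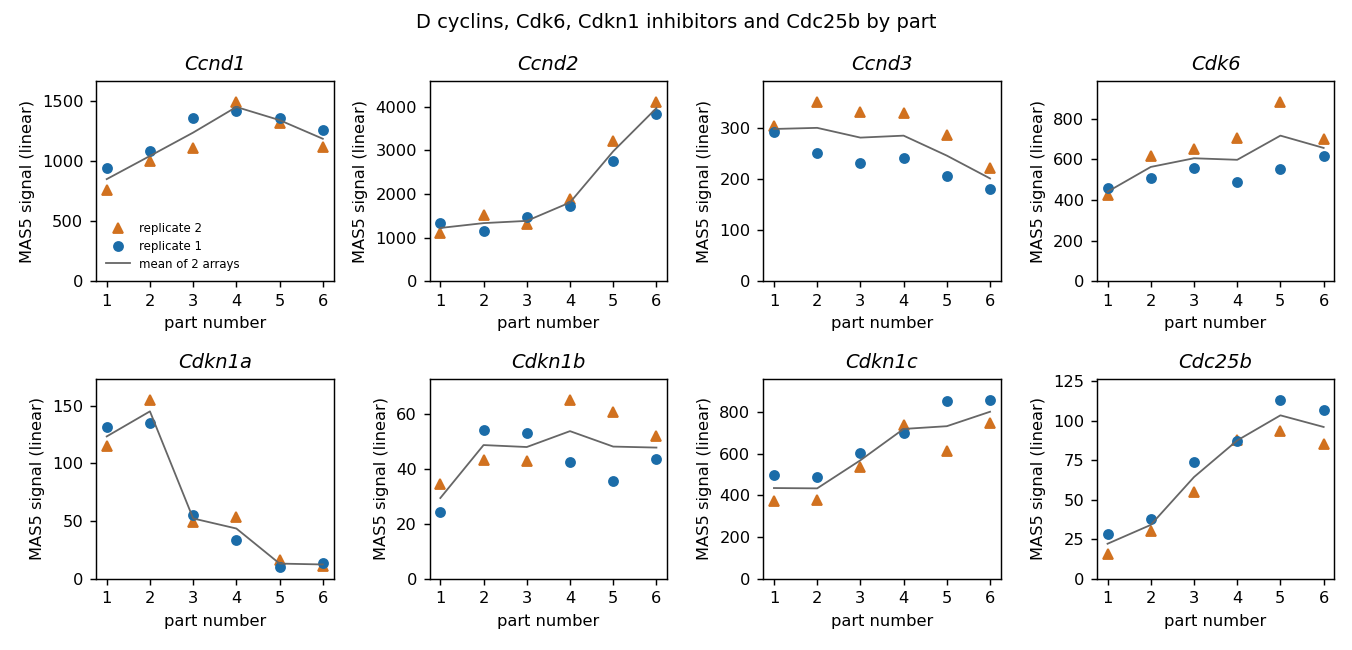
MAS5 signal (vertical axes, linear, from 0) of the D cyclins, Cdk6, the Cdkn1 inhibitors and Cdc25b against part number; triangles are replicate 2, circles replicate 1 and lines the mean of 2 arrays. Ccnd2 climbs to 3844 and 4103 in part 6, Cdkn1a drops to 14.1 and 10.8, and Cdkn1c and Cdc25b climb.

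Of the 16 genes of G1 and S phase, Cdt1 and Mcm4 rose, none fell and 14 did not pass, with a median slope of 0.042. Cdt1, which loads the MCM helicase on DNA (1424143_a_at), had 2032 and 1512 in part 1, 2369 and 2256 in part 2, 2526 and 2271 in part 3, 2755 and 2941 in part 4, 2998 and 2919 in part 5, and 2774 and 2626 in part 6. Mcm4, a subunit of that helicase (1436708_x_at), had 1756 and 2164 in part 1, 2389 and 2842 in part 2, 2594 and 2606 in part 3, 2693 and 2945 in part 4, 2612 and 3015 in part 5, and 2937 and 3104 in part 6. In both genes the arrays of part 1 were the lowest of all 12. The slopes were 0.13 ± 0.032 for Cdt1 (adjusted p = 0.0201) and 0.10 ± 0.029 for Mcm4 (adjusted p = 0.0351). A second probe set of Cdt1 rose too (0.14, adjusted p = 0.0290 over all kept probe sets), and that of Mcm4 had a slope of 0.11 (adjusted p = 0.0589). Neither slope passed in a fit of parts 2 to 6 alone (adjusted p = 0.187 for Cdt1 and 0.322 for Mcm4). Mcm4 also stopped passing when any 1 of 7 arrays was left out (either array of part 1 or part 6, replicate 1 of parts 2 or 4, or replicate 2 of part 5; adjusted p up to 0.117).

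Part 6 against part 1 separated a further pair of S phase genes, in a contrast that 9.09 percent of all genes passed and 6 of the 42 cell cycle genes did (14.3%). Of these, Ccnd2, Ccne1, Cdc25b, Cdkn1c and Ung were higher in part 6, as were 4.17 percent of all genes, and Cdkn1a was lower, as were 4.92 percent. Ccne1, the cyclin E1 gene that opens S phase (1441910_x_at), had 511 and 445 in part 1, 1196 and 913 in part 2, 1863 and 997 in part 3, 1167 and 1267 in part 4, 1309 and 1119 in part 5, and 1094 and 1161 in part 6. Part 6 was 2.36-fold above part 1, at 1.23 ± 0.28 on the log2 scale (adjusted p = 0.0228), while the slope of 0.19 ± 0.073 did not pass (adjusted p = 0.112). Ung, a uracil-DNA glycosylase that repairs uracil in new DNA (1425753_a_at), had 699 and 875 in part 1, 1421 and 1320 in part 2, 1140 and 1263 in part 3, 1330 and 1353 in part 4, 1455 and 1326 in part 5, and 1549 and 1294 in part 6. In both genes part 1 lay below everything else. Part 3 held the highest array of Ccne1, and in Ung both arrays of part 3 lay below those of parts 2, 4, 5 and 6. Ung was 1.81-fold higher in part 6, at 0.85 ± 0.18 (adjusted p = 0.0163), with a slope of 0.13 ± 0.041 (adjusted p = 0.0568). A second probe set of Ccne1 rose along the part number (0.14, adjusted p = 0.0132 over all kept probe sets). The difference in Ccne1 stopped passing without part 1 replicate 2 or without either array of part 6 (adjusted p up to 0.129), and that in Ung without part 6 replicate 1 (adjusted p = 0.116).

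Signal in part 1 was then counted over the class. Both arrays of part 1 lay below the other 10 in 7 of the 16 genes (Ccne1, Cdt1, Mcm2, Mcm3, Mcm4, Rrm2 and Ung), or 43.8%, against 7.04 percent of all genes, 1 of 19 genes of G2 and M (5.26%) and 4 of 33 further replication genes (12.1%). None of the 16 was highest in part 1, as were Gins4 and Slbp among those 33 (6.06%). The genes of the count were picked after their values were seen. Averaged over the 16 genes, the deviation from each gene's own mean was -0.34 to -0.147 log2 units in the arrays of part 1 and -0.0343 to 0.114 in the other 10. Rrm1, the large subunit of ribonucleotide reductase (1415878_at), went the other way, with 1610 and 2041 in part 1, 1528 and 1587 in part 2, 1625 and 1561 in part 3, 1694 and 1513 in part 4, 1475 and 1661 in part 5, and 1260 and 1305 in part 6, and a slope of -0.07 ± 0.027 that did not pass (adjusted p = 0.112). Part 6 held its 2 lowest arrays. The remaining 11 genes of the class (Mcm2, Mcm3, Mcm5, Mcm6, Mcm7, Cdc6, Gmnn, Pcna, Ccne2, E2f1 and Rrm2), which code for helicase subunits, replication licensing, the polymerase clamp, cyclin E2, a transcription factor and a reductase subunit, had slopes of -0.04 to 0.071 (SE 0.023 to 0.057).

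Windows matched 32 of the 42 genes by symbol (35 windows); those of Mcm4, Gmnn, Ccne2, Ccnd1, Ccnd2, Cdkn1c, Ccna2, Aurkb, Tpx2 and Cdc25c were not analysed here. Among genes of G1 and S, Mcm6, another helicase subunit, is printed because its window holds 3 E2F matches. Capitals mark the motifs searched on both strands, which were the E2F site (TTTCCCGC, TTTCGCGC, TTTGCCGC or TTTGGCGC), CHR (TTTGAA or TTCGAA), the CCAAT box (CCAAT) and the GC box (GGGCGG).
Mcm6, chr1:128359706-128359855, minus strand: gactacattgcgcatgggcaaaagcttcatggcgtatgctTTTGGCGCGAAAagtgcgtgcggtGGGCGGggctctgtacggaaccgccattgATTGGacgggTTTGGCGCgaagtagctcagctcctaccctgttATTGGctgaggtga
The first 2 E2F matches, on opposite strands, overlap each other, and matches of different motifs overlap in only 1 of the 35 windows, that of Mcm7. An E2F match lay in 6 of 14 windows of the G1 and S genes (42.9%), against 2.26% of all 32851 windows. Mcm6 itself had a slope of 0.07 ± 0.029 (adjusted p = 0.133), and a second probe set rose (0.12, adjusted p = 0.0172 over all kept probe sets).

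The genes of G2 and M, which build the spindle, pass its checkpoint and separate chromosomes, mostly had slopes near 0. Of 19 tested, Cdc25b rose, Cdk1 fell and 17 did not pass, with slopes of -0.05 to 0.053 (SE 0.022 to 0.080), and the median absolute slope was 0.020. Averaged over the class, the deviation from each gene's mean stayed between -0.0945 and 0.0968 log2 units on all 12 arrays. Mki67, the gene of the proliferation antigen Ki-67, had a slope of -0.0033 ± 0.029, cyclin A2 (Ccna2) -0.0012 ± 0.024, and the mitotic kinases Aurka and Plk1 0.0013 ± 0.022 and 0.00079 ± 0.044. The ± values are SE, and a confidence interval is wider than they show. Slopes of several hundredths are therefore not excluded by the test, least of all for Plk1, which had the largest SE of these genes.

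Cdk1, the kinase that drives entry into mitosis (1448314_at), had 966 and 1342 in part 1, 907 and 971 in part 2, 895 and 871 in part 3, 934 and 938 in part 4, 818.5 and 861 in part 5, and 774 and 739 in part 6. Part 6 held its 2 lowest arrays, and replicate 2 of part 1 was the highest. Its slope was -0.10 ± 0.028 (adjusted p = 0.0386). The call was lost when any 1 of 7 arrays was left out (replicate 2 of parts 1 or 2, replicate 1 of part 4, or either array of parts 5 or 6; adjusted p up to 0.104).

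Cdc25b, a phosphatase that activates Cdk1 and that in chick spinal cord is linked to neuron production (1421963_a_at), was the 1 gene of its class that rose. Its signal was 28.3 and 16.0 in part 1, 37.9 and 30.3 in part 2, 74.0 and 54.6 in part 3, 87.2 and 87.7 in part 4, 113 and 93.7 in part 5, and 106 and 85.5 in part 6. Each of parts 1 to 4 lay below the next without overlap, and part 6 overlapped both part 4 and part 5. The slope was 0.42 ± 0.057 (adjusted p = 0.000295), and part 6 averaged 96.0 ± 14.8 against 22.2 ± 8.72 in part 1 (SD, n = 2 each), a 4.33-fold ratio (log2 difference 1.95 ± 0.26, adjusted p = 0.00145). Part 1 lay near the array medians, so the ratio depends on a dim signal.

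Among the other 17 genes of the class, Bub1 and Cenpf had the smallest slope p and Cenpe the widest range of part means, and none of these passed. Bub1, a spindle checkpoint kinase (1424046_at), had 1154 and 1459 in part 1, 1141 and 1075 in part 2, 1086 and 1105 in part 3, 1120 and 908.5 in part 4, 1149 and 1120 in part 5, and 1027 and 1054 in part 6 (slope -0.05 ± 0.028, adjusted p = 0.327). Both its arrays of part 1 were above the other 10, as in 7.59 percent of all genes; among the 19 genes of the class this held for Bub1 and for Birc5, the gene of survivin. Cenpf, a centromere protein (1427161_at), had 1231 and 1335 in part 1, 1105 and 1125 in part 2, 1263 and 1088 in part 3, 1158 and 1150 in part 4, 1194 and 1109 in part 5, and 1076 and 1078 in part 6 (slope -0.03 ± 0.022, adjusted p = 0.397). Cenpe, a kinesin of the kinetochore (1439040_at), had 232 and 785 in part 1, 406 and 584 in part 2, 360 and 659 in part 3, 360 and 488 in part 4, 319 and 401 in part 5, and 508 and 674.5 in part 6. On this probe set its replicates differed more than its parts, and the slope was 0.02 ± 0.080 (adjusted p = 0.904).

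**Figure D4:**
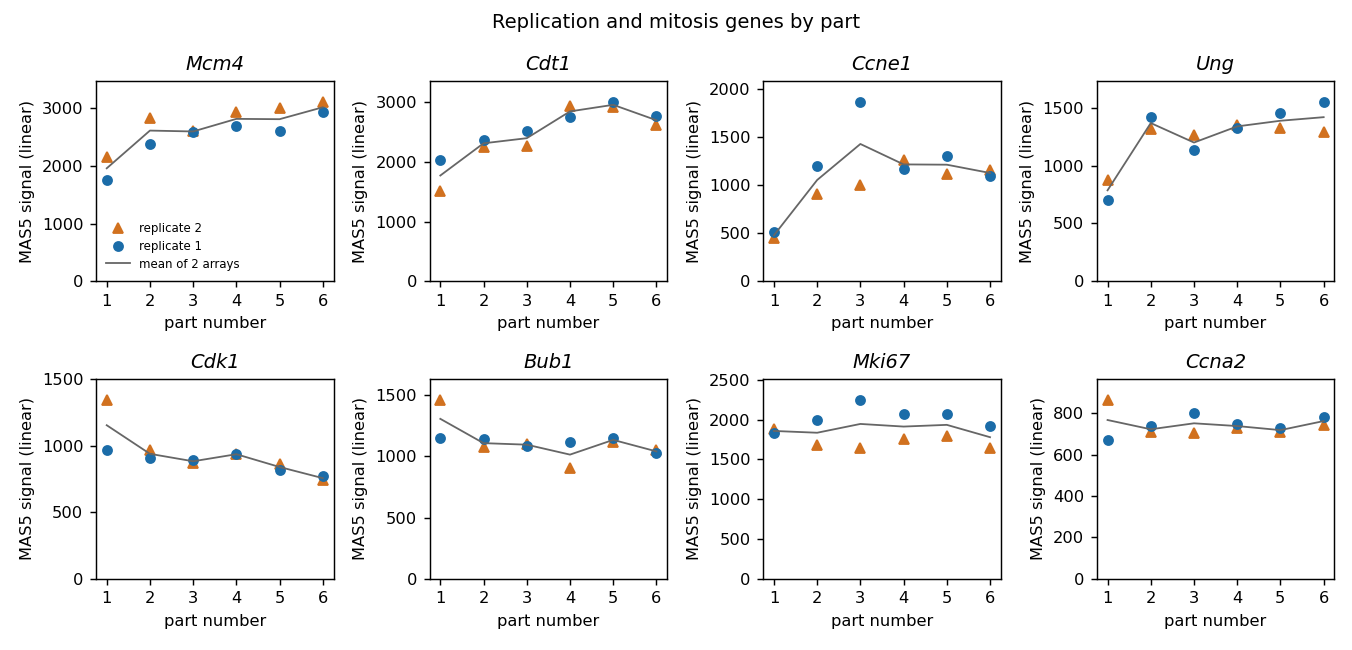
MAS5 signal (vertical axes, linear, from 0) of 4 genes of G1 and S (top) and 4 of G2 and M (bottom) against part number; triangles are replicate 2, circles replicate 1 and lines the mean of 2 arrays. In Mcm4, Cdt1, Ccne1 and Ung both arrays of part 1 are the lowest, Cdk1 slopes down, Bub1 is highest in part 1, and Mki67 and Ccna2 run level.

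Windows of 4 genes of this class are printed for contrast with Mcm6: the falling gene Cdk1, the rising gene Cdc25b, and Cdc20 and Top2a, whose slopes did not pass. Cdc20 activates the anaphase-promoting complex and Top2a is a topoisomerase that untangles chromosomes.
Cdk1, chr10:69352913-69353062, minus strand: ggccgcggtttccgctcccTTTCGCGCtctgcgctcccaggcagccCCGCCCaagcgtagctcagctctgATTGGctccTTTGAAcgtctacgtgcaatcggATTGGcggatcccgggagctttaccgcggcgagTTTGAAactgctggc
Cdc20, chr4:118437344-118437493, minus strand: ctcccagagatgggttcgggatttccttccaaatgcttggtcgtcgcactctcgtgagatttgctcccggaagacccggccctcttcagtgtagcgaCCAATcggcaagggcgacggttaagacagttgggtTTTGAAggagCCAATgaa
Top2a, chr11:99024190-99024339, minus strand: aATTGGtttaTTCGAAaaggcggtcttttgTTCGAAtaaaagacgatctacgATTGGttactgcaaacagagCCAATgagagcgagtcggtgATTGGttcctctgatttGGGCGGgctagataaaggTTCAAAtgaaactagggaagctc
Cdc25b, chr2:131186798-131186947, plus strand: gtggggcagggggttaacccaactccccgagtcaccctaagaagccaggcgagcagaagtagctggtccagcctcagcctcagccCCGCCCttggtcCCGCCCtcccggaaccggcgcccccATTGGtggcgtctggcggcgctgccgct
A CHR match lay in 13 of 15 windows of the G2 and M genes (86.7%), against 2 of 14 windows of the G1 and S genes (14.3%) and 19.2% of all windows. A CHR match together with a CCAAT box lay in the same 13 windows (86.7%), against 7.52% of all windows. Cdk1 held the single E2F match among these 15 windows (6.67%). The CHR match of Cdc25b lies 8 bases past the start, outside the stretch printed, so Cdc25b, Cdk1, Cdc20 and Top2a all hold CHR letters although their slopes differ. The D cyclin, Cdk6 and Cdkn1 windows held neither E2F nor CHR matches, in 0 of 3 and 0 of 3. A match is a string of letters, not a measured site, and shares between classes were not tested.

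**Figure D5:**
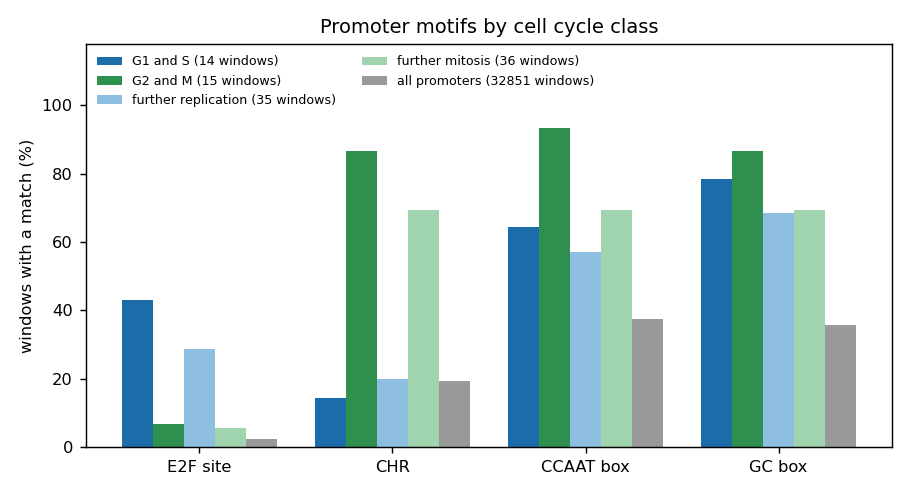
Percent of promoter windows of 300 bases (vertical axis, from 0) that hold each motif on either strand, for genes of G1 and S, genes of G2 and M, further replication and mitosis genes, and all RefSeq windows. The E2F site is at 42.9% in G1 and S windows and 6.67% in G2 and M windows, and CHR at 14.3% and 86.7%.

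An F test asked for any difference among the 6 parts. It was passed by 3 of the 42 genes (7.14%), Ccnd2 (adjusted p = 0.00233), Cdc25b (0.00472) and Cdkn1a (0.000148), against 4.91 percent of all genes. Cdkn1c did not pass (adjusted p = 0.123), nor did Ccne1 (0.0635), and both passed with the replicate number as a block (0.0376 and 0.0367). Between consecutive parts limma called 0 of the 42 genes in any of the 5 steps, against 0.422 percent of all genes; at an unadjusted p under 0.05 in any step were 9 of the 42 (21.4%) and 19.9% of all genes. Step by step, limma called 0.248 percent of all genes between part 2 and part 1, 0.19 percent between part 3 and part 2, and 0.00827 percent in each of the 3 later steps. Cdkn1a differed by -1.40 ± 0.24 log2 units for part 3 minus part 2 (adjusted p = 0.0801), and its step to part 5, where both arrays were under the array median, did not pass (adjusted p = 0.183). Ccne1 differed by 1.13 ± 0.28 between part 2 and part 1 (adjusted p = 0.189), and Ung by 0.80 ± 0.18 (adjusted p = 0.140). With the block, part 6 against part 1 also called Mcm4 (adjusted p = 0.0245) and Cdt1 (adjusted p = 0.0406), both higher in part 6.

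The replicates were compared with part as a covariate. None of the 42 genes passed in limma's test, against 1.63 percent of all genes; at an unadjusted p under 0.05 were 10 of the 42 (23.8%) and 19.8% of all genes. Cenpe was higher in replicate 2 in 6 of 6 parts (0.71 ± 0.19 log2 units, adjusted p = 0.0986), as was Ccnd3 (0.37 ± 0.094, adjusted p = 0.0919), and the Cdt1 inhibitor geminin (Gmnn) was lower in replicate 2 in 6 of 6 parts (-0.56 ± 0.14, adjusted p = 0.0926). The slopes of the replicates differed in 0 of the 42 genes in limma's interaction test, with 0 at an unadjusted p under 0.05, and in 0 percent of all genes.

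Further cell cycle genes were counted by the same slope test, which 11 of 93 passed (11.8%), near the 12.7 percent of all genes, with a median slope of 0.023. Of 33 replication genes tested, Chaf1b, a histone chaperone subunit (0.13 ± 0.027, adjusted p = 0.00670), and Dtl, which directs the degradation of Cdt1 (0.13 ± 0.031, adjusted p = 0.0113), rose and none fell. Of 36 mitosis genes, only Pttg1, which encodes securin, passed, and it fell (-0.10 ± 0.030, adjusted p = 0.0415). Of 14 genes of the Rb and E2F pathway, Rb1 (0.39 ± 0.038, adjusted p = 1.9e-05), E2f2 (0.27 ± 0.035, adjusted p = 0.000226) and E2f3 (0.09 ± 0.025, adjusted p = 0.0387) rose, and E2f6, a repressing member (-0.15 ± 0.025, adjusted p = 0.00131), fell. Among 9 genes of cell cycle exit and the p53 response, Gadd45a (0.38 ± 0.061, adjusted p = 0.00106) and Gadd45g (0.49 ± 0.12, adjusted p = 0.0153) rose, whereas Ccng2, an unconventional cyclin (-0.21 ± 0.027, adjusted p = 0.000226), and Trp53inp1 (-0.20 ± 0.052, adjusted p = 0.0202) fell. The other 5 of the 9, Mdm2, Phlda3, Ccng1, Btg1 and Btg2, did not pass. Gadd45g averaged 12.5, 13.0 and 11.5 in parts 1, 2 and 3, and Gadd45a averaged 10.5 in part 2, all under the array medians. In part 1 Gadd45a averaged 17.7, within the range of those medians, so both slopes depend on dim signals. The 1 Ink4 inhibitor tested of 4 listed did not pass.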

How the data were processed

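Gene expression was measured on 12 arrays, 6 parts of the neural tube in 2 replicates. The deposited values are linear intensities from MAS5, as the submitters' processing notes name it (version not given in the sources used here), with 1 value for each probe set on an array; detection calls were not used. Of 45101 probe sets, 64 controls were left out, 34945 named 1 gene (34741 matched to RefSeq by Entrez identifier), 932 several and 9211 none. Probe sets naming 1 gene with a signal above the array median in at least 2 arrays were kept (21679), and the one with the highest mean stood for its gene (12089). An offset of 4.43 (0.25 times the median of all signals, 17.7) was added before taking log2, which understates changes of dim genes. Tests used limma 3.58.1 in R 4.3.3 with Benjamini-Hochberg adjustment over all genes at 0.05, without a replicate block. They were also run on simulated data in which arrays were drawn independently, so deviations shared by the parts of an embryo were not simulated. Replicate numbers were taken to pair arrays: deviations from part means correlated at 0.183 to 0.335 in all 15 pairs of parts, and the series text names 2 embryos. The genes, lists and tests were chosen with earlier results of these data known. Values on every array are given for genes past any test, the D cyclins, Cdk6 and Cdkn1 genes, and, in each phase class, the 4 smallest slope p and 2 largest ranges.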

Additional observations from a re-analysis of the deposited data

How the results depend on the processing

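The slopes, end differences and F tests of Ccnd2, Cdc25b and Cdkn1a and the slope of Cdkn1c kept their calls under every alternative run, and no result reversed. Leaving out 1 array at a time gave 5 to 8 genes by slope (7 with all arrays), 3 to 10 between part 6 and part 1 (6 with all arrays; 10 without part 1 replicate 1, 3 without part 6 replicate 1), 3 to 4 by F, and 0 to 0 for steps, replicates and the difference in slopes. Without both arrays of part 1, 4 genes passed by slope. With the replicate number as a block, for arrays paired by embryo, the F test called 5 genes instead of 3, the slope 9 instead of 7 and the end difference 8 instead of 6. The F test called 5 with an offset equal to the median signal, 5 with a filter at the 75th percentile and 6 with trend and robust moderation. Under those 3 settings 1 gene passed a consecutive step (Cdkn1a, Cdkn1a and Ung). Replicates differed in 2, 3 and 3 genes (Cenpe on its main probe set and Gmnn, with Ccnd3 under the second and the third), and quantile normalization called Gmnn, 1 gene. The slope call of Cdk1 was also lost without a filter, with every probe set as a feature and without parts 1 or 6 (adjusted p up to 0.238), that of Mcm4 without a filter and without part 6 (up to 0.128), and the end difference of Cdkn1c without a filter or with every probe set (up to 0.0786). Over all genes, 903 passed by slope without part 1 and 976 without part 6, against 1540; the F test called 306 and 329, against 594. Without replicate 1 or 2 of part 6 the end difference called 611 and 487 genes, against 1099. Counts for consecutive steps ranged from 20 to 128, against 51, and for replicates from 113 to 612, against 197 (806 probe sets with every probe set as a feature). The causes were not tested. With 2 arrays per part and dim signals for Cdkn1a and Cdc25b at 1 end, small changes could not be resolved.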
